A study of Mus musculus with 6 samples.

Results

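Sox proteins bind DNA through an HMG box and are sorted into groups by the sequence of that domain. SoxB1 factors (Sox2, Sox3) maintain progenitors in neural and sensory tissues, and the SoxB2 factor Sox21 acts as a repressor that can oppose them. SoxC factors (Sox4, Sox11, Sox12) are activators found in many embryonic progenitors, SoxF factors (Sox7, Sox17, Sox18) are best known for their roles in blood and lymphatic vessels, and Sox15 is the only SoxG factor. These 10 genes were taken by symbol from the 23420 symbols of each count table, as the SoxB, SoxC, SoxF and SoxG factors. The SoxB genes Sox1 and Sox14 were not among them and were read with the remaining Sox genes.

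The tables compared lacrimal gland buds of 3 control and 3 Pea3 TKO samples at stage E14.5, all on a mixed background. Controls carried Le-Cre, a transgene that drives Cre recombinase in the ocular surface ectoderm. The sample titles call them WT. The study gives Le-Cre for its RNA-seq controls, and its methods also list Le-Cre mice heterozygous for the Pea3, Erm and Er81 alleles as controls. Pea3 TKO samples carried Le-cre together with Pea3-/-, Erm fl/fl and Er81 fl/fl, so that Pea3 (Etv4) was missing from every tissue and Erm (Etv5) and Er81 (Etv1) were removed only where the transgene had acted. These genes encode the ETS factors that FGF signaling induces in the bud, and the comparison asks how the bud transcriptome differs without them. The labels do not say whether the samples came from separate embryos, so p-values measure the spread between these samples, which may be technical.

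Libraries held between 14194775 and 17860140 counts, and 3 counts corresponded to 0.169 to 0.21 CPM, the read count normalized to 1e6 reads. The targeted genes did not overlap between the groups. Etv5 lay between 961 and 1202 CPM in controls and between 88.2 and 177 in Pea3 TKO, Etv4 between 129 and 184 against 10.9 to 28.4, and Etv1 between 28.7 and 33.9 against 9.21 to 9.98. Replicates were distinct libraries, since chi-square per degree of freedom was at least 15.5 within groups. The epithelial markers Cdh1 and Epcam were found in every library, and the lowest level of Epcam, an epithelial adhesion protein, was 1201 CPM. Embryo sex was not balanced. Summed Y-linked expression was 136 to 175 CPM in the 3 controls and 139 in Pea3 TKO replicate 3, but at most 0.445 in Pea3 TKO replicates 1 and 2.

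Of the 10 members, 6 had enough reads to be tested (Sox21, Sox4, Sox11, Sox12, Sox7 and Sox15), and Sox2, Sox3, Sox17 and Sox18 did not. Sox21, Sox4 and Sox11 fell in Pea3 TKO, no member rose, and Sox12, Sox7 and Sox15 did not pass the test. Among all 13087 tested genes, 25% passed an edgeR adjusted p threshold of 0.05 and 11.3% passed it as lower in Pea3 TKO, against 3 of the 6 tested members. The median log2 fold change was -0.39 over the 6 tested members and 0.01 over all tested genes. Sox21, Sox4, Sox11 and Sox12 had every Pea3 TKO sample below every control. Over all tested genes 21.3% did so, 22.5% had every Pea3 TKO sample above every control, and 43.9% had groups that did not overlap in either direction.

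**Figure D1:**
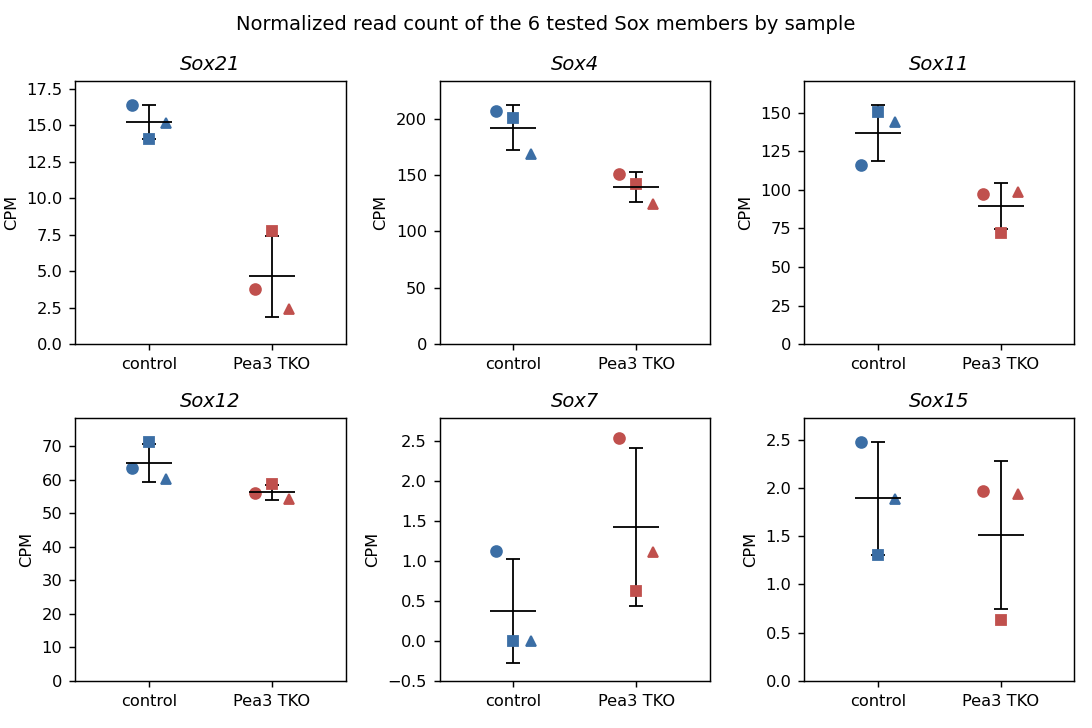
Normalized read count (CPM, linear axis) of the 6 tested members in each sample. Circles, squares and triangles are replicates 1, 2 and 3, the horizontal line is the group mean and the bar its SD (n = 3). Sox21, Sox4, Sox11 and Sox12 show no overlap between the groups, whereas Sox7 and Sox15 do overlap.

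The 3 genes that fell are shown with the 250 bases upstream of their RefSeq start (GRCm38.p6), because the deleted ETS factors belong to a family that binds the core GGAA. The windows are chr14:118237031-118237280 for Sox21, chr13:28953700-28953949 for Sox4 and chr12:27342719-27342968 for Sox11, each read 5′ to 3′ on the minus strand. The last bases of the Sox4 window lie within the GENCODE exon of that gene, whose annotated start is further upstream. Capitals mark any match to AGGAAG or CGGAAG, searched on both strands. Other occurrences of GGAA, such as those in the Sox4 window, are not marked.
Sox21: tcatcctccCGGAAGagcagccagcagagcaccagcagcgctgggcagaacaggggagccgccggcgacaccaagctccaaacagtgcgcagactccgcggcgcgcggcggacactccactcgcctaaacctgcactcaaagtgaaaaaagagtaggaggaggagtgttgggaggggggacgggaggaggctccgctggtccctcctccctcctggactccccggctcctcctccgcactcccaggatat
Sox4: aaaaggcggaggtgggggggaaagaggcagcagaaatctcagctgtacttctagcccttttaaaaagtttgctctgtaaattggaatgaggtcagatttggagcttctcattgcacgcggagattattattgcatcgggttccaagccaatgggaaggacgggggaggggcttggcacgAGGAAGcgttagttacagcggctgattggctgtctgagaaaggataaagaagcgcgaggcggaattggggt
Sox11: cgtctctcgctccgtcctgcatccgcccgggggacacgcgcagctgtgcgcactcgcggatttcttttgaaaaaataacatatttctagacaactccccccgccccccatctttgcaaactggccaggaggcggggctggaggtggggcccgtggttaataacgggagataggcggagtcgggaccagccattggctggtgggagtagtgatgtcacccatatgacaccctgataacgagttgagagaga
The Sox21 window held 1 match, with its first base 241 bases upstream of the start, and the Sox4 window held 1 match, 71 bases upstream. The Sox11 window held none of these letters. Of 32851 windows of this length over all genes, 39.2% held AGGAAG or CGGAAG, so a match in a window of this kind is common. Of the members that did not pass the test, Sox15 had 1 match and Sox12 had none, though the Sox12 window held the shorter core GGAA.

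The SoxB2 factor Sox21 (ENSMUSG00000061517.8) is a single-exon gene on chromosome 14 from 118233232 to 118237030 on the minus strand of GRCm38. It had 291, 226 and 233 reads in control replicates 1 to 3, or 16.4, 14.1 and 15.2 CPM. In Pea3 TKO replicates 1 to 3 it had 60, 111 and 41 reads, or 3.81, 7.76 and 2.41 CPM. The highest mutant sample therefore lay well below the lowest control. The mean fell from 15.2 ± 1.16 to 4.66 ± 2.78 CPM (SD, n = 3 each), a 3.27-fold lower level. On the log2 scale the change was -1.71 (standard error 0.41, 95% interval -2.63 to -0.79, edgeR adjusted p = 0.015). Without Pea3 TKO replicate 1 the log2 fold change was -1.59 and the adjusted p was 0.056.

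Sox4 and Sox11, the SoxC factors that are often expressed together in embryonic progenitors, were the most abundant members by read count. Sox4 (ENSMUSG00000076431.4), a single-exon gene on chromosome 13 from 28948919 to 28953713 on the minus strand, had 207, 200.5 and 169 CPM in control replicates 1 to 3. The Pea3 TKO replicates had 151, 142 and 125 CPM, all below the lowest control. Sox4 was 1.38-fold lower, and the log2 fold change was -0.46 (standard error 0.13, 95% interval -0.75 to -0.18, edgeR adjusted p = 0.026), from 192 ± 20.2 to 139 ± 13.5 CPM (SD, n = 3 each).

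Sox11 (ENSMUSG00000063632.6), a single-exon gene on chromosome 12 from 27334264 to 27342574 on the minus strand, had 116, 151 and 144 CPM in control replicates 1 to 3. It had 97.4, 72.4 and 98.5 CPM in Pea3 TKO replicates 1 to 3, again without overlap. Its mean fell from 137 ± 18.2 to 89.4 ± 14.8 CPM (SD, n = 3 each), and the log2 fold change was -0.61 (standard error 0.16, 95% interval -0.96 to -0.26, edgeR adjusted p = 0.020). The calls for both genes depended on single libraries. The edgeR adjusted p of Sox4 was 0.059 without control replicate 1, 0.091 without control replicate 2, 0.070 without Pea3 TKO replicate 2 and 0.073 without Pea3 TKO replicate 3, and that of Sox11 was 0.081 without control replicate 2, 0.068 without control replicate 3 and 0.076 without Pea3 TKO replicate 2.

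Sox12 (ENSMUSG00000051817.8), the third SoxC factor, lies on chromosome 2 from 152393611 to 152398063 on the minus strand. The controls, in replicate order, had 63.4, 71.3 and 60.3 CPM, and the Pea3 TKO samples had 56.1, 58.6 and 54.1 CPM. The groups did not overlap, but the gap between 60.3 and 58.6 CPM was small. The log2 fold change was -0.21 (standard error 0.13, edgeR adjusted p = 0.28), with a 95% interval from -0.50 to 0.09.

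Embryo sex and genotype cannot be fully told apart in these samples, since 2 of the 3 Pea3 TKO libraries lacked Y-linked expression and no control did. In Pea3 TKO replicate 3, the mutant library with Y-linked expression like that of the controls, Sox21 and Sox4 had their lowest levels of the 6 samples, and Sox11 at 98.5 CPM lay below the lowest control at 116 CPM. With Y-linked expression as a covariate, Sox21 kept its call (log2 fold change -2.65, edgeR adjusted p = 0.0295), whereas Sox4 (-0.62, adjusted p = 0.083) and Sox11 (-0.49, adjusted p = 0.26) did not. These adjusted estimates rest mainly on Pea3 TKO replicate 3, so they cannot separate sex from that single library.

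SoxG is represented by Sox15 alone, which is known from muscle progenitors and early embryonic cells. Sox15 (ENSMUSG00000041287.5) lies on chromosome 11 from 69655314 to 69656727 on the plus strand, and its levels were low in both groups. Controls had 2.48, 1.31 and 1.89 CPM and Pea3 TKO replicates 1.97, 0.629 and 1.94 CPM, so that the groups overlapped. The log2 fold change was -0.32 with a wide 95% interval from -1.84 to 1.20 (edgeR adjusted p = 0.77), and it was 0.05 without Pea3 TKO replicate 2. The end of Sox15 overlaps an exon of Mpdu1 on the opposite strand, a gene with 54.1 to 85.3 CPM, and the reads of these genes cannot be told apart there if strand was not used. The same limit holds for Sox21 and Sox4, whose exons overlap the antisense non-coding genes Gm4675 and Gm26735, for which the tables have no row.

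To compare the members with each other, CPM was divided by the exonic length in kilobases. Sox4 was the highest member in every sample, at 35.2 to 43.1 CPM per kilobase in controls and 26 to 31.5 in Pea3 TKO. Its control mean placed it at the 87.0th percentile of 12315 tested genes with a length. Sox11 and Sox12 followed and could not be ordered in controls, where they had 16.5 ± 2.2 and 14.6 ± 1.3 CPM per kilobase (SD, n = 3 each) and their values overlapped. In Pea3 TKO the order was Sox12 at 12.1 to 13.2 above Sox11 at 8.71 to 11.9 CPM per kilobase.

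The ratio of Sox12 to Sox11 per kilobase was 1.02, 0.883 and 0.783 in the controls, in replicate order, against 1.07, 1.51 and 1.03 in the Pea3 TKO samples. Every mutant ratio was above every control ratio, a mean difference of 0.41 on the log2 scale. The exact two-sided permutation test gave p = 0.10, the smallest value that 3 samples against 3 allow, and 0.20 after adjustment over the 4 ratios compared. The Sox4 to Sox12 ratio did not overlap either, with a log2 difference of -0.26 (exact permutation p = 0.10, adjusted 0.20), and the Sox4 to Sox11 ratio overlapped between the groups (difference 0.16, exact permutation p = 0.60). The fourth ratio, Sox21 to Sox15, differed by -1.42 with overlapping groups (exact permutation p = 0.40).

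Below the SoxC genes, Sox21 had 3.71 to 4.32 CPM per kilobase in controls and Sox15 had 1.52 to 2.88, without overlap. In Pea3 TKO, Sox21 at 0.634 to 2.04 and Sox15 at 0.731 to 2.29 CPM per kilobase overlapped. SoxC genes made up 90.4% to 93.3% of the summed level per kilobase of the 10 members in controls and 93.1% to 94.6% in Pea3 TKO. The sum itself was 72.5 to 81.4 CPM per kilobase in controls and 53.3 to 60 in Pea3 TKO. In tissue samples of this kind, fewer cells of a type and less RNA per cell cannot be told apart.

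**Figure D2:**
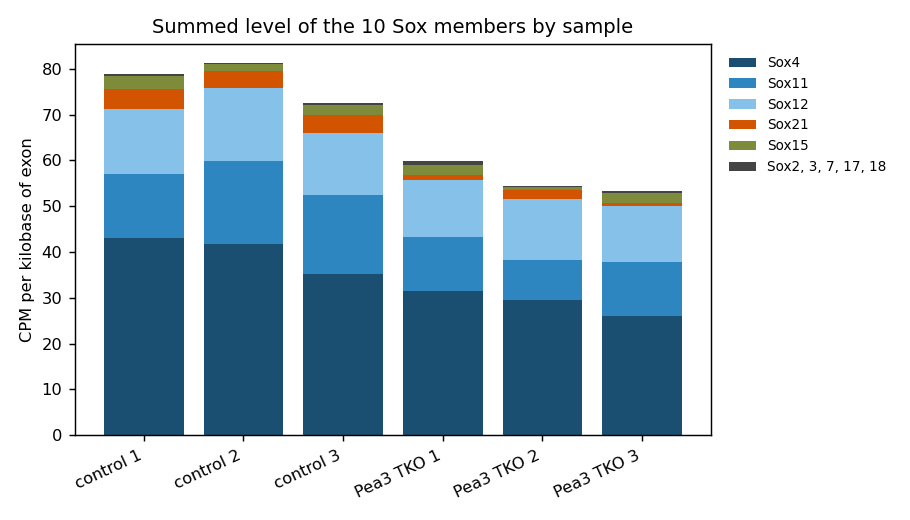
Level of each member in CPM per kilobase of exon, stacked by sample, with Sox2, Sox3, Sox7, Sox17 and Sox18 combined at the top. The bars reach 72.5 to 81.4 in controls and 53.3 to 60 in Pea3 TKO, and Sox4, Sox11 and Sox12 fill most of every bar.

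Among the SoxF genes, Sox17 and Sox18 had few reads and Sox7 was low and uneven. Sox7 (ENSMUSG00000063060.6), on chromosome 14 from 63943673 to 63950732, had 20, 0 and 0 reads in the controls, in replicate order, and 40, 9 and 19 reads in the Pea3 TKO samples. In CPM, control replicate 1 at 1.13 lay within the mutant range of 0.629 to 2.54, and the groups overlapped. The log2 fold change was 1.88 with a 95% interval from -1.12 to 4.87 (edgeR adjusted p = 0.34). Without control replicate 1, the only control with reads, the edgeR adjusted p was 0.020. Sox7 then passed the low-count filter through Pea3 TKO alone, and that value supports no difference. In the fit over all samples, too, Sox7 would not have passed the filter on the control reads.

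Sox18 (ENSMUSG00000046470.5) had 0, 5 and 6 reads in the controls, in replicate order, and none in Pea3 TKO. Over the group this was 0.224 CPM in controls (exact Poisson 95% interval 0.112 to 0.400), and 0 in Pea3 TKO (0 to 0.0784). Sox17 (ENSMUSG00000025902.13) had 2 reads in all, both in control replicate 3. In a fit without the low-count filter, the unadjusted edgeR p was 0.064 for Sox18 and 0.28 for Sox17 (adjusted 0.19 and 0.48). Neither difference passed the test at this depth.

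Since SoxF genes are typical of endothelium, 20 endothelial markers were read beside them. Tie1, Emcn, Icam2 and Robo4 had no reads in any library, and Cdh5, the cadherin of endothelial junctions, reached at most 0.0635 CPM. The summed level of the list was 34.3 to 45.0 CPM in controls and 43.2, 65.4 and 62.4 in Pea3 TKO replicates 1 to 3. Of these mutant sums, the single gene Flt1 made up 7.68, 21.6 and 31.8 CPM. Most of the control sum was the single gene Egfl7, at 24.3 to 31.1 CPM in controls and 16.7 to 23.9 in Pea3 TKO (edgeR adjusted p = 0.12). Of 7 markers with enough reads, 2 rose and none fell, beside 25% called over all tested genes. They were Flt1, a VEGF receptor with at most 0.113 CPM in controls and 7.68 to 31.8 in Pea3 TKO, and Ramp2, a receptor accessory protein that went from at most 0.935 to at least 3.22 CPM. Flt1 passed the low-count filter through Pea3 TKO alone. Ramp2, with 2, 15 and 8 reads in the controls, would not have passed on those reads. Their calls therefore add nothing to these levels, and 2 of 7 is not comparable with the share over all genes. The part of endothelial cells in the Sox7 and Sox18 reads was not tested.

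The SoxB1 genes were near absent. Sox2 (ENSMUSG00000074637.7), a single-exon gene on chromosome 3 from 34650405 to 34652461 and a regulator of eye, lens and placode progenitors, had no reads in the 3 controls. It had 2, 0 and 5 reads in Pea3 TKO replicates 1 to 3. Over the groups this was 0 CPM in controls (exact Poisson 95% interval 0 to 0.075) and 0.149 CPM in Pea3 TKO (0.0598 to 0.306). The unadjusted edgeR p without the low-count filter was 0.098 (adjusted 0.25). Sox2 lies within Sox2ot, a non-coding gene on the same strand that reached at most 0.374 CPM, in control replicate 2. Sox3 (ENSMUSG00000045179.9), the X-linked SoxB1 gene, had 1 read in control replicate 2 and none elsewhere, and a single read allows no comparison. The intervals and limits given for these low counts cover counting error only.

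**Figure D3:**
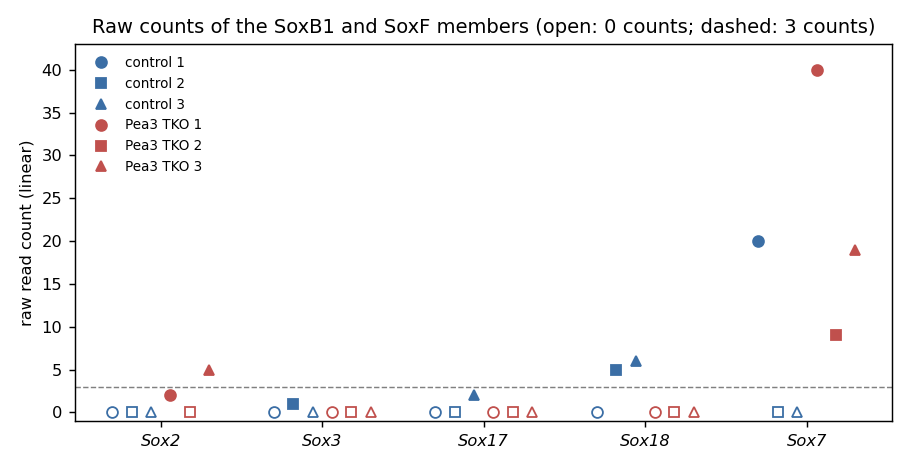
Raw read counts of the SoxB1 genes Sox2 and Sox3 and the SoxF genes Sox17, Sox18 and Sox7 in each sample on a linear axis. Open symbols are libraries with 0 reads and the dashed line marks 3 counts. Sox18 reads lie only in control replicates 2 and 3 and Sox2 reads only in Pea3 TKO replicates 1 and 3.

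Sox2 is also found in Merkel cells, neurons, lens and retina, and Sox11 in neurons, so markers of these cells were read as well. The 6 Merkel cell markers summed to at most 1.97 CPM in any library and Atoh1, which specifies these cells, had no reads. The 8 markers of neural retina and pigment epithelium summed to at most 0.997 CPM, with Rax, Six6, Otx2 and Rpe65 at 0 in all libraries. The 8 neuronal markers summed to 4.10 to 6.14 CPM in controls and 1.75 to 4.99 in Pea3 TKO, with none of the 3 tested passing the threshold. Lens markers were present in all libraries, at 154 to 992 CPM in controls and 188 to 356 in Pea3 TKO. Of 7 tested, 1 fell, the lens filament gene Bfsp2, which passed the low-count filter through the controls. The lens sum was 356 and 233 CPM in Pea3 TKO replicates 1 and 3, which had Sox2 reads, 188 CPM in Pea3 TKO replicate 2, which had none, and 347, 992 and 154 CPM in the controls, which had none. The part of lens cells in the Sox2 reads was not tested.

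SoxC genes are also expressed in mesenchyme. The 15 mesenchymal markers summed to 444 to 489 CPM in controls and to 843, 1031 and 425 CPM in Pea3 TKO replicates 1 to 3. Most of the control sum was Foxc1, Foxc2 and Vim (means 210, 117 and 87.9 CPM), so the sum is a poor measure of mesenchyme. Col3a1, a collagen, had 2.99, 6.42 and 53.3 CPM in controls and 120, 213 and 2.0 in Pea3 TKO (edgeR adjusted p = 0.19). Of 14 markers tested, 2 rose (Dcn and Lum, proteoglycans of connective tissue) and 1 fell, Foxc2, beside 25% called over all tested genes. Dcn stood at 69.7 and 73.6 CPM in Pea3 TKO replicates 1 and 2 but at 2.41 CPM in replicate 3, within the control range of 0.249 to 4.42 CPM. The part of mesenchyme in the SoxC levels was not tested. Markers of blood (36.0 to 122 CPM in controls and 52.2 to 237 in Pea3 TKO) and macrophages (0.997 to 22.8 and 0 to 16.6 CPM) varied within both groups, and none of their 3 and 4 tested genes passed the threshold. Skeletal muscle markers summed to at most 3.70 CPM. Of 6 tested Schwann cell and melanocyte markers only Erbb3, a receptor that epithelia also express, changed, with a log2 fold change of -1.24 (edgeR adjusted p = 6.5e-04).

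Most epithelial markers rose. Of 12 markers of bud and surface epithelium, 9 rose and none fell, while Epcam, Grhl2 and Cdh3 did not pass the test, with a summed level of 3614 to 4769 CPM in controls and 7317 to 8879 in Pea3 TKO. Examples were Cdh1, the epithelial cadherin, at 458 to 572 CPM in controls and 1034 to 1108 in Pea3 TKO, and the splicing regulator Esrp2 (log2 fold change 1.86, edgeR adjusted p = 4.5e-04). Of 12 markers of stratified epithelium 11 rose, among them Krt14 and the envelope protein Evpl but not Trp63, and their sum went from 1198 to 2423 CPM in controls to 6686 to 9036 in Pea3 TKO. Over all tested genes, 13.6% rose. Krt5, Krt14 and Sfn were named in the study for their expression in the mutant bud. The study also reported from these samples a rise of many keratins and an enrichment of epidermal genes. The direction of the stratified list is therefore not independent evidence. Dsg3, also on this list, passed the low-count filter through Pea3 TKO alone. The part of these epithelial changes in the Sox decreases was not tested.

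The other Sox genes gave a frame for the size of these changes. Of 9 genes of the SoxD, SoxE and remaining groups, 6 were tested, and Sox10, Sox6, Sox8 and Sox9 fell. The log2 fold change was -2.43 for Sox10, a SoxE factor, -1.95 for the SoxD factor Sox6 and -0.53 for the SoxE factor Sox9. Sox8, the third SoxE factor, had 2.82 to 8.06 CPM in controls and 3 reads in all in Pea3 TKO. Sox9 and Sox10 were named in the study for their change in Pea3 TKO, so their direction is not independent evidence. Sox13 and Sox5 did not pass the test, and Sox1, Sox14 and Sox30 had too few reads. In all, 7 of 12 tested Sox genes fell and none rose, against 11.3% lower and 13.6% higher over all tested genes. This total includes Sox9 and Sox10, and also Sox8, which passed the low-count filter through the controls alone. It is therefore a description and not evidence of a fall across the family.

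**Figure D4:**
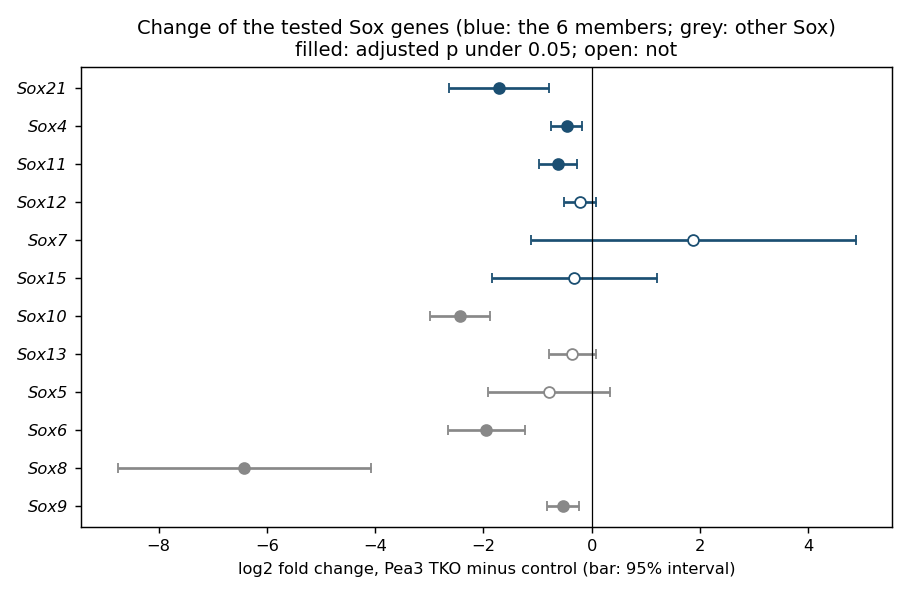
Log2 fold change (Pea3 TKO minus control) with its 95% interval for the 6 tested members in blue and 6 other tested Sox genes in grey. Filled points passed an adjusted p threshold of 0.05. The members run from -1.71 for Sox21 to 1.88 for Sox7, the latter with an interval that spans 0.

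Sox factors act with partner proteins, and 16 of 20 listed partners and cofactors had enough reads to be tested. Of these 5 rose and 2 fell, with a median log2 fold change of 0.04, while 13.6% rose and 11.3% fell over all tested genes. Fhl3, a LIM-domain protein, rose from 0.113 to 0.520 CPM in controls to 29.1 to 35.1 CPM in Pea3 TKO (log2 fold change 6.52, edgeR adjusted p = 1.7e-05). Pax6, a partner of Sox2 in the eye, rose from 184 to 240 CPM in controls to 427 to 486 in Pea3 TKO. Nr2f2, a nuclear receptor, also rose (log2 fold change 1.75), as did Pou3f1 and Lef1, which had at most 0.187 and 0.846 CPM in controls. Fhl3 and Pou3f1 passed the low-count filter through Pea3 TKO alone. Lef1, with 15, 2 and 5 reads in the controls, would not have passed on those reads. The calls of these genes add nothing to the levels given, and the 5 rises are not comparable with the 13.6% over all genes. The 2 that fell were Chd7, a chromatin remodeller that acts with Sox2, with 32.1 to 37.0 CPM in controls and 6.81 to 14.4 in Pea3 TKO, and Rbpj, the DNA-binding partner of Notch, with a log2 fold change of -0.63.

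Of 12 genes described as SoxC targets, 8 were tested, and 1 rose and 1 fell (median log2 fold change -0.07). This is the share called over all tested genes, 25%, and says nothing particular about these targets. Sema3c, a secreted guidance cue, rose with a log2 fold change of 1.5 (edgeR adjusted p = 0.0069). Ezh2, a histone methyltransferase, had 144.5, 144.3 and 144.2 CPM in the controls and 92.5, 102 and 110 CPM in the Pea3 TKO samples, and its log2 fold change was -0.51 (edgeR adjusted p = 0.011). The neuronal target Tubb3 reached at most 0.436 CPM.

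Genes described as SoxB1 targets included 8 of 14 with enough reads, of which 5 rose and none fell (median log2 fold change 0.95). Over all tested genes, 13.6% rose and 11.3% fell. The 5 targets were Jag1, Notch1, Mycn, Nes and Ccnd1. Sox2 and Sox3 themselves were near absent in both groups, and their part in these rises was not tested. Nes, an intermediate filament gene of neural progenitors, had 100.5 to 110 CPM in controls and 136 to 185 in Pea3 TKO (log2 fold change 0.68, edgeR adjusted p = 0.0069), and Mycn had a log2 fold change of 1.63 (edgeR adjusted p = 0.0050). Of SoxF targets, 5 of 14 were tested and Efnb2, Notch1 and Vcam1 rose, beside the same 13.6% over all tested genes. Notch1 is in both lists. Efnb2, an ephrin ligand, had 38.0 to 50.7 CPM in controls and 161 to 191 in Pea3 TKO. Jag1 and Notch1 were named in the study for their change in these same samples, so they are not independent evidence of a direction.

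**Figure D5:**
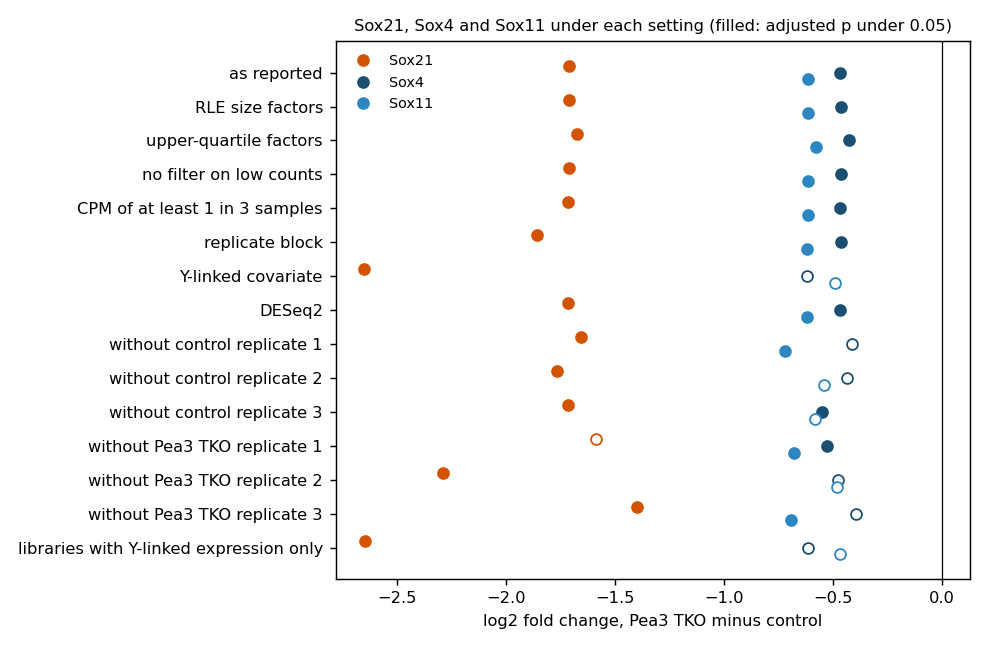
Log2 fold change (Pea3 TKO minus control) of Sox21, Sox4 and Sox11 under each processing alternative, with filled points where the adjusted p was under 0.05. All points lie below 0. Sox21 ranges from -2.65 to -1.40, Sox4 from -0.62 to -0.39 and Sox11 from -0.72 to -0.46.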

How the data were processed

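RNA-seq was performed on E14.5 lacrimal gland epithelium taken by laser capture from flash-frozen embryos. The authors deposited raw read counts per gene symbol, 1 table per sample and without normalization. The submitters' processing notes name STAR 2.5.2b, featureCounts 1.5.0-p3, bcl2fastq 2.17, DESeq and the mm10 build. The annotation, the strand setting and the treatment of multi-mapping reads are not given in the sources used here. The RNA was amplified before library preparation, and reads without molecular identifiers are not independent molecules, so counting intervals cover counting error only.

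Low counts were removed with filterByExpr (edgeR 4.0.16 in R 4.3.3), which left 13087 of 23420 symbols. After TMM normalization, the quasi-likelihood test of edgeR was applied to the 2 groups, with p-values adjusted by Benjamini-Hochberg over every tested gene and called under 0.05. The standard error was taken from the fold change and its F statistic, and 95% intervals from the moderated degrees of freedom. CPM is the TMM-normalized count per 1e6. Exonic lengths and positions come from GENCODE M21 (GRCm38) by symbol, and 94.1% of tested genes had a length. Promoter sequences come from RefSeq (GRCm38.p6), which matched 6 of the 10 members. The scripts were tested on simulated counts. Alternatives were DESeq2 1.42.0, other size factors and filters, the replicate number as a block, a Y-linked covariate, leaving out each sample in turn, and, added after the data were seen, the libraries with Y-linked expression alone.

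The members and gene lists were chosen with earlier results of these data known. The genes named are the 10 members, the targeted genes, any annotated gene that overlaps a member, up to 3 genes with the smallest p of each list, and the 2 tested genes of at least 5 CPM whose log2(CPM + 1) had the highest Pearson r with each tested member. Other genes are named for their values where a count of 5 or fewer, an absent marker or a background level called for it. Not every gene that this rule selects is described.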

Additional observations from a re-analysis of the deposited data

How the results depend on the processing

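Sox21, Sox4 and Sox11 passed the threshold and no other member did with RLE or upper-quartile size factors, without a low-count filter, with a filter at 1 CPM in 3 samples, with DESeq2 and with the replicate number as a block (3 members, 3191 genes in all). These 3 genes were lower in Pea3 TKO under every alternative run. With the Y-linked covariate, 865 genes and 1 member (Sox21, lower) passed, and log2 fold changes were -0.62 for Sox4, -0.49 for Sox11 and 0.076 for Sox15, the last on the other side of 0. In the libraries with Y-linked expression alone, an alternative chosen after seeing the data in which the lone Pea3 TKO sample is assumed to vary like the controls, 597 genes and 1 member (Sox21, lower) passed, with -0.61 for Sox4, -0.46 for Sox11 and 0.047 for Sox15. Fewer samples or degrees of freedom remain in both, and the cause was not tested further. Leaving out each sample in turn gave between 1948 (without control replicate 3) and 3344 genes, with 1963 without control replicate 2 and 2072 without Pea3 TKO replicate 2. It gave 1 to 3 members called, 1 to 2 of them lower and 0 to 1 higher (Sox7, without control replicate 1). Log2 fold changes then ranged from -2.29 to -1.40 for Sox21, -0.55 to -0.39 for Sox4, -0.72 to -0.48 for Sox11, 1.18 to 7.5 for Sox7, a fitted value against controls without reads and no bound, and -0.55 to 0.050 for Sox15. Sox12 stayed between -0.27 and -0.14 and did not pass. Deviations of same-numbered samples correlated at 0.13, -0.042 and -0.00092, and 2 of the 6 samples correlated best with their own number, so the replicate numbers are not taken as pairs. Depth limits the SoxB1 and SoxF genes, for which 3 reads are 0.169 to 0.21 CPM in a library.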

Other observations

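Over the 6 samples, the tested genes of at least 5 CPM whose log2(CPM + 1) followed Sox21 most closely were Ctnnal1 (Pearson r = 0.993) and Smoc2 (r = 0.990), a secreted calcium-binding matrix protein with 142 to 152 CPM in controls and 16.4 to 50.8 in Pea3 TKO. For Sox4 they were Ick (0.988) and Trim8 (0.985), and for Sox11 Pabpc4 (0.994) and Zmynd19 (0.994). Sox12 was closest to Rilpl1 (0.989) and Zfp330 (0.988), Sox7 to Efcab4a (0.995) and Vps28 (0.993), and Sox15 to Zfp503 (0.988) and Poll (0.972). These are descriptions over 6 libraries that share the difference between the groups. Of 10786 candidate genes, 115 reached r = 0.95 with Sox21, 120 with Sox11, 39 with Sox4 and 19 with Sox12. Of 10787 candidates, 52 reached it with Sox7 and 9 with Sox15, both of which had few reads.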
